A study of Saccharomyces cerevisiae with 4 samples.

Results

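Arginine and proline breakdown in budding yeast was followed through 10 genes on spotted 2-colour DNA microarrays of messenger RNA from 4 samples. The genes were the enzymes CAR1, CAR2, PUT1 and PUT2, the permease PUT4, and the regulators ARG80, ARG81, ARG82, UME6 and PUT3. They were picked by function and name, with earlier results from these arrays already known, so their values are given as description and none is tested. Each of the 10 genes was found by its symbol in the platform annotation and had 1 probe, out of 5547 named genes and 6195 features in all.

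The samples were a Δsnf2 strain in the BY4741 background set against wild-type BY4741, BY4741 set against itself, a strain named PSY3 with the SnAC domain of Snf2 deleted set against its wild type PSY2, which carries Snf2-2FLAG, and PSY2 set against itself. BY4741 is a laboratory strain of mating type a that needs added histidine, leucine, methionine and uracil. Further alleles of PSY2 and PSY3 are not given in the sources used here. All strains grew at 25 °C in YPD, a rich glucose medium, to an optical density of 0.8, with no arginine, proline or other treatment named. Snf2 is the ATPase of SWI/SNF, a complex that slides and evicts nucleosomes, and the design asked how loss of Snf2 or of its SnAC domain alters expression.

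Yeast uses arginine as a nitrogen source by splitting it to ornithine and urea with arginase, the product of CAR1. Ornithine transaminase, the product of CAR2, passes the carbon on towards proline, which Put1 and Put2 oxidise to glutamate in the mitochondrion. Arginine switches this route on through a complex of Arg80, Arg81, Arg82 and Mcm1 that also represses the arginine synthesis genes. Ume6 represses CAR1 and CAR2 when arginine is not needed, and a good nitrogen source holds genes such as PUT4 and CAR1 low by nitrogen catabolite repression.

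Each sample gave 1 log ratio per probe, read as log2, with channel 1 over channel 2, so values above 0 mean more messenger in the mutant. There were no replicates, so no value has a replicate error and no test was possible. Values below are relative to the median of their own array, which in the deposited values was 0.004 for the null, -0.13 for BY4741, -0.39 for the SnAC deletion and 0.10 for Snf2-2FLAG. Precision is limited by the number of arrays, which was 1 a group. The only repeat measurement within an array came from genes with several probes, 22 to 29 of them with values. Their probes differed by a median of 0.085 log2 on the null array, 0.11 on BY4741, 0.14 on the SnAC deletion array and 0.13 on Snf2-2FLAG. In the same order the 90th percentile was 0.36, 0.26, 0.30 and 0.27, and the largest difference was 0.40, 0.57, 0.53 and 0.30. The probe of SNF2 itself read -2.14 on the null array and -0.19 on BY4741, and neither the SnAC deletion nor the Snf2-2FLAG array gave a value for it.

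The 10 genes did not move as a pathway. In both mutants the messenger of CAR2 was far lower and that of PUT4 was higher, while the other 8 genes stayed within 1.5-fold of the array median. A gene counted as higher or lower if it differed at least 2-fold from the array median. It also had to fall beyond the range that held the central 99% of features on its background's wild-type array. That range was -0.49 to 0.43 on BY4741 and -0.74 to 0.74 on Snf2-2FLAG. Both lie inside 2-fold, so the fold alone set these calls. By that measure 2 of the 10 genes were called in the null, where 2.85% of 6031 features were called, and the same 2 in the SnAC deletion, where 2.05% of 5890 were. By direction, 1.26% of features were higher and 1.59% lower in the null, and 0.866% were higher and 1.19% lower in the SnAC deletion. The median of the 10 genes was 0.07 in the null and 0.14 in SnAC-deleted cells, against 0 for all probes by construction.

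**Figure D1:**
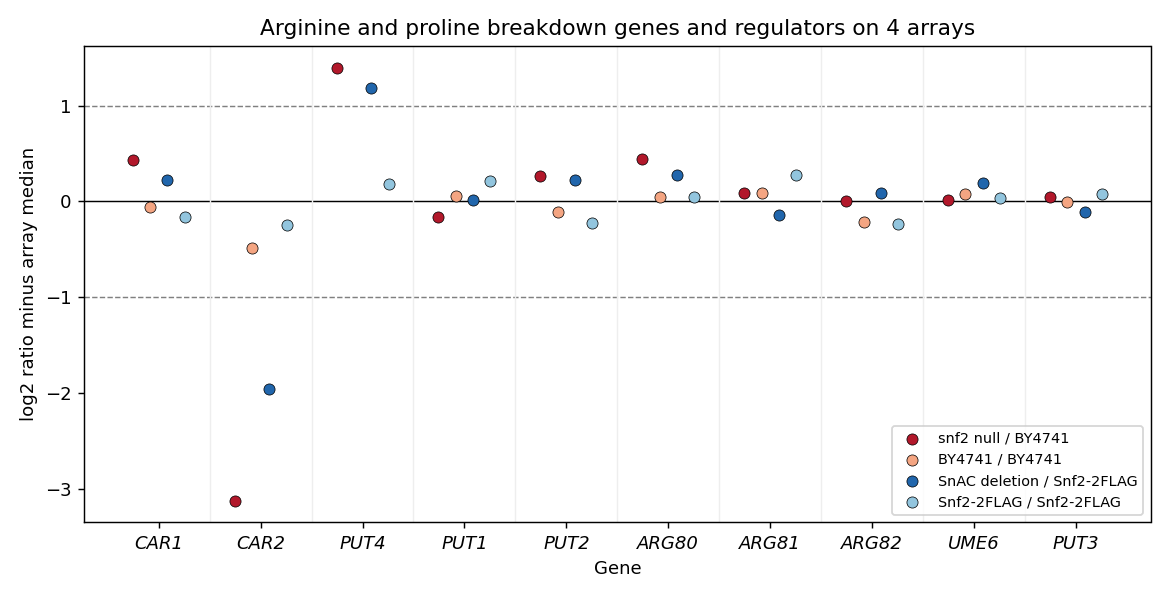
Log2 ratio minus array median (vertical axis) of the 10 genes (horizontal axis) on the null, BY4741, SnAC deletion and Snf2-2FLAG arrays, 1 point per array, with dashed lines at 2-fold. CAR2 lies at -3.12 and -1.96 in the mutants, PUT4 lies at 1.40 and 1.18, and the remaining points lie between -0.49 and 0.44.

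CAR2 (YLR438W) encodes the transaminase that removes ornithine. It read -3.12 on the null array, against -0.49 on the BY4741 array. It read -1.96 on the SnAC deletion array, against -0.24 on the Snf2-2FLAG array. Both mutant values lie far below both wild-type values, and the null is the lowest of the 4. As folds, CAR2 was 8.72-fold below the array median in the null and 3.88-fold below it in SnAC-deleted cells.

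These ratios place CAR2 near the bottom of both mutant profiles. It ranked 10 from the lowest of 6031 features in the null and 24 from the lowest of 5890 in SnAC-deleted cells. CAR2 was also low where BY4741 was set against itself, at rank 31 from the lowest of 5808 features and below the central 95% of that array, -0.31 to 0.30. On the Snf2-2FLAG array 13.7% of features were lower than CAR2. With the wild-type array of the same background subtracted, CAR2 read -2.63 in the null, 6.2-fold lower, and -1.71 in the SnAC deletion, 3.28-fold lower.

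CAR2 was lower in the null than in the SnAC deletion by more than almost any other gene. The null minus SnAC deletion difference was -1.17, a 2.25-fold gap, where the central 99% of 5790 features ran from -0.74 to 0.66. Only 10 features had a lower difference. After the wild-type arrays were subtracted the gap was -0.92, and in the values as deposited it was -0.77. The mutants differ in strain background as well as in the SNF2 allele, and with 1 sample each these cannot be told apart.

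CAR1 (YPL111W), the arginase gene that acts a step before CAR2, was not low with it. It read 0.43 on the null array, against -0.06 on BY4741. It read 0.22 on the SnAC deletion array, against -0.17 on Snf2-2FLAG. Both mutant values lie above both wild-type values. Over the matching wild-type array the rise was 1.41-fold in the null and 1.3-fold in the SnAC deletion. The null value sits at the upper edge of the central 99% of the BY4741 array, which ended at 0.43, and 92% of null features were lower. As deposited, the SnAC deletion value of CAR1 was -0.18, below 0, so the direction there depends on the centring.

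PUT4 (YOR348C), the high-affinity proline permease, was the only one of the 10 genes called higher. It read 1.40 on the null array and had no value on the BY4741 array. It read 1.18 on the SnAC deletion array, against 0.18 on the Snf2-2FLAG array. The mutant values lie close together and above the only wild-type value, with folds of 2.63 and 2.27 over the array median. PUT4 ranked 35 from the highest in the null and 33 from the highest in SnAC-deleted cells. The SnAC deletion call is marginal, since PUT4 read 0.79 as deposited and 0.999 with the Snf2-2FLAG array subtracted, both under 2-fold. The null minus SnAC deletion difference was 0.22, inside the central 95% of all features, -0.37 to 0.39.

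The enzymes that oxidise proline changed little. PUT1 (YLR142W), proline oxidase, read -0.16 on the null array, against 0.06 on BY4741, and 0.02 on the SnAC deletion array, against 0.21 on Snf2-2FLAG. PUT2 (YHR037W), the dehydrogenase that completes the conversion to glutamate, read 0.27 on the null array, against -0.11 on BY4741, and 0.22 on the SnAC deletion array, against -0.23 on Snf2-2FLAG. In each mutant PUT1 read lower and PUT2 higher than on the matching wild-type array, yet all 4 mutant values lie inside the central 95% of features on the matching wild-type array. PUT3 (YKL015W), the activator that turns on PUT1 and PUT2 when proline is present, read 0.05 on the null array, against -0.01 on BY4741. It read -0.11 on the SnAC deletion array, against 0.08 on Snf2-2FLAG.

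The regulators of arginine use were likewise near the array median. ARG80 (YMR042W), a MADS-box protein of the arginine complex, read 0.44 on the null array, against 0.05 on BY4741, and 0.27 on the SnAC deletion array, against 0.05 on Snf2-2FLAG. Its null value was just above the central 99% of the BY4741 array, a range that 13.2% of all null features fell outside. ARG81 (YML099C), the arginine-sensing zinc cluster protein, read 0.09 on both the null and BY4741 arrays. It read -0.14 on the SnAC deletion array, against 0.27 on Snf2-2FLAG. MCM1, the MADS-box partner of Arg80 and Arg81, read -0.35 on the null array, against -0.10 on BY4741, and -0.08 on the SnAC deletion array, against 0.002 on Snf2-2FLAG.

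ARG82 (YDR173C) encodes an inositol polyphosphate kinase that stabilises Arg80 and Mcm1. It sat at the median of the null array, against -0.22 on BY4741, and read 0.09 on the SnAC deletion array, against -0.24 on Snf2-2FLAG. UME6 (YDR207C), the repressor of CAR1, CAR2 and early meiotic genes, read 0.01 on the null array, against 0.07 on BY4741. It read 0.19 on the SnAC deletion array, against 0.03 on Snf2-2FLAG. Like these regulators, 92.5% of all features in the null and 94.3% in SnAC-deleted cells lay within 1.5-fold of the array median.

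The side of the median on which the small values lay depended on the scaling. Of the 10 genes, 6 lay on the same side of the median in both mutants and 3, PUT1, PUT3 and ARG81, lay on opposite sides, while ARG82 sat at the median in the null. Over 5790 features 78.3% lay on the same side. With the wild-type arrays subtracted, 7 of the 9 genes with values on all 4 arrays had the same direction in both mutants, PUT1 and ARG81 among them. In the null 7 of 10 genes were above the median, or 8 as deposited. In the SnAC deletion 7 were above the median, but only 1, PUT4, was above 0 as deposited. On the wild-type arrays 4 genes, CAR1, CAR2, PUT2 and ARG82, were below the median on both, and 4, PUT1, ARG80, ARG81 and UME6, were above it on both. Of 19 wild-type values, only CAR2 on BY4741 lay outside the central 95% of its own array.

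**Figure D2:**
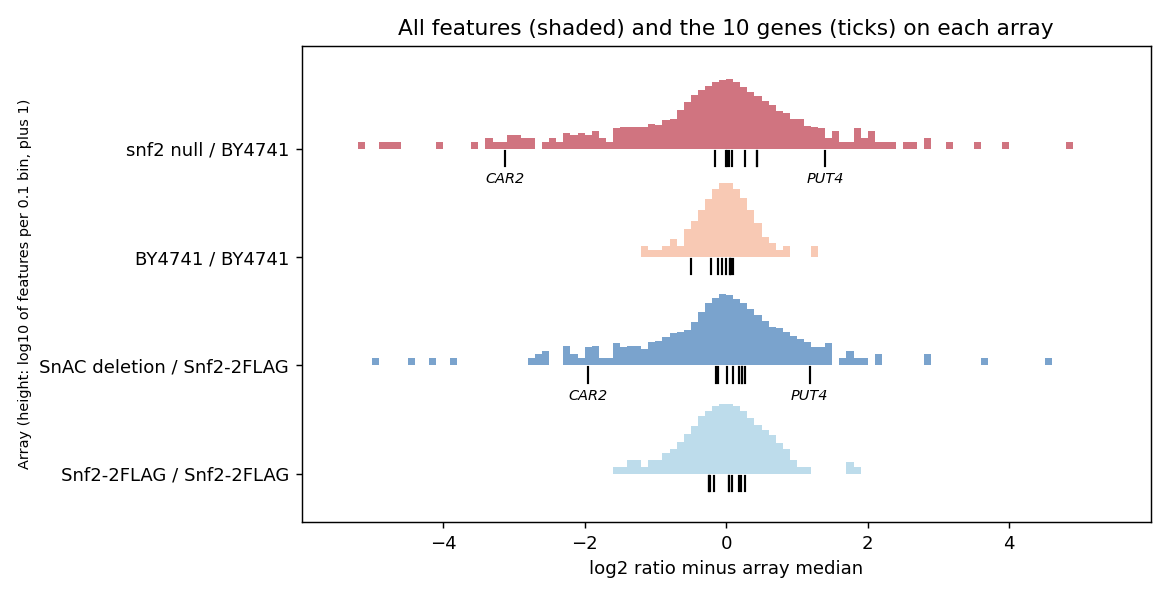
Distribution of all features by log2 ratio minus array median (horizontal axis) on each of the 4 arrays (rows), with shading height on a log scale and ticks for the 10 genes. CAR2 and PUT4 lie in the tails of both mutant arrays, and the ticks of the wild-type arrays run from -0.49 to 0.27.

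Values of the genes that lie beside the 10 genes on the chromosome were set next to them, using gene order in the R64 reference. CAR2 stood apart from its divergent neighbour DIF1, a regulator of ribonucleotide reductase localisation, which read -0.16 in the null and 0.25 in SnAC-deleted cells. The neighbour on the other side, LSM3, had no value under its name. CAR1, at 0.43 in the null and 0.22 in SnAC-deleted cells, lay nearer to its divergent neighbour PEX25. That peroxisomal protein gene read -0.01 in the null and 0.08 in SnAC-deleted cells.

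PUT4 was different, because the gene just downstream of it on the same strand was higher too. That gene, PYK2, encodes a pyruvate kinase repressed by glucose. PYK2 read 1.04 on the null array, against -0.25 on BY4741. It read 1.15 on the SnAC deletion array and had no value on Snf2-2FLAG. CIN1, the divergent gene on the promoter side of PUT4, read 0.24 in the null and 0.26 in SnAC-deleted cells.

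Across all 10 genes, 19 of 20 neighbours had a value in each mutant, and PYK2 and TSL1 were called higher in both while none was called lower. TSL1, a trehalose synthase subunit convergent with ARG81, read 2.12 in the null, against -1.06 on BY4741, and 2.16 in the SnAC deletion, against -1.23 on Snf2-2FLAG. ARG81 beside it stayed at 0.09 and -0.14 in these mutants. ATP7, an ATP synthase subunit gene divergent from PUT3, read 0.62 in the null and 0.56 in SnAC-deleted cells, while PUT3 read 0.05 and -0.11.

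**Figure D3:**
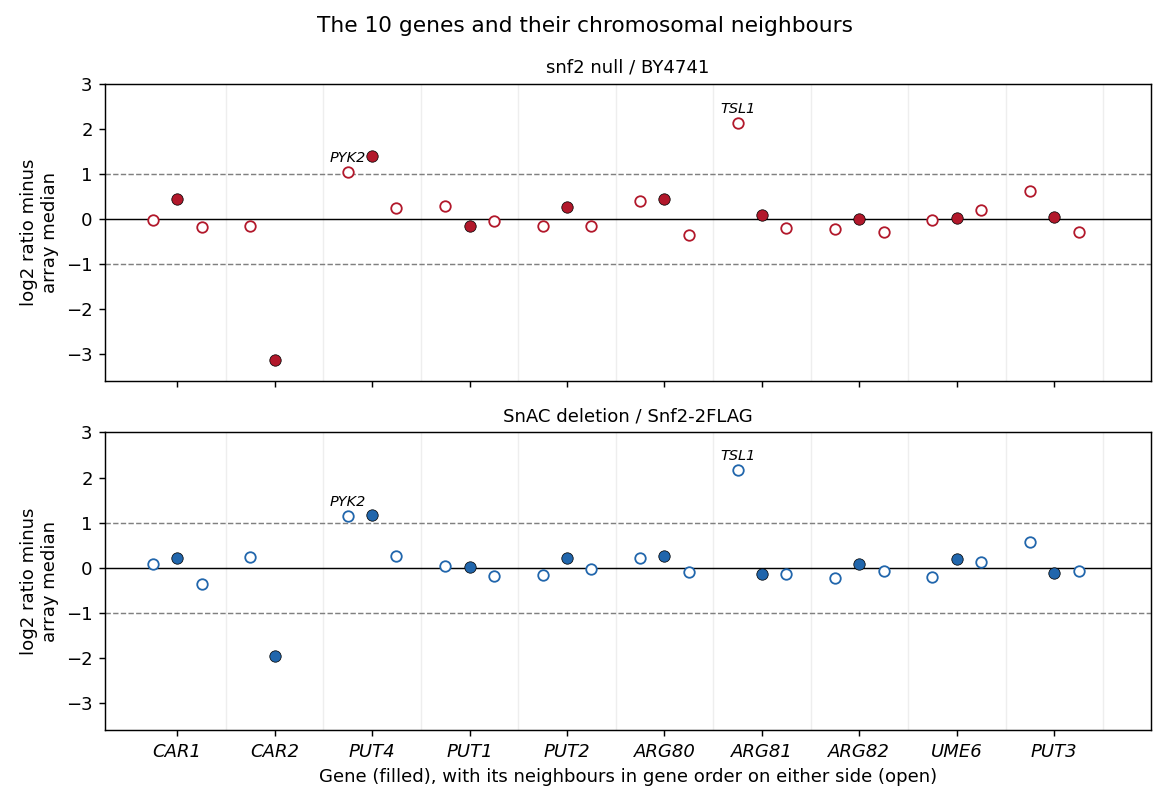
Log2 ratio minus array median (vertical axis) of the 10 genes (filled) and of the genes before and after them in chromosomal order (open), for the null (upper panel) and the SnAC deletion (lower panel), with dashed lines at 2-fold. PYK2 beside PUT4 and TSL1 beside ARG81 lie above 2-fold in both mutants, and CAR2 lies alone below it.

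Of the 8 measured arginine synthesis genes, 7 read higher in the null than in SnAC-deleted cells, a difference with no replicate to test it. Over 5790 features the median null minus SnAC deletion difference was -0.01. The exception was ORT1, the mitochondrial ornithine transporter, named after its values were seen, at 0.06 in the null and 0.14 in SnAC-deleted cells. As deposited ORT1 read 0.07 and -0.25, so the count of 7 depends on the centring. Of 10 listed genes, 8 had a named probe with values, and in the null 2 were higher and 0 lower, while in the SnAC deletion 0 of 8 were called. Their median was 0.55 in the null and 0.02 in SnAC-deleted cells. ARG1, argininosuccinate synthetase, read 2.08 on the null array, against -0.08 on BY4741, and 0.11 on the SnAC deletion array, against -0.24 on Snf2-2FLAG. ARG4, argininosuccinate lyase, read 1.34 on the null array, against -0.14 on BY4741, and 0.07 on the SnAC deletion array, against -0.36 on Snf2-2FLAG.

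CPA1, a subunit of carbamoyl phosphate synthetase, read 0.84 in the null and 0.18 in SnAC-deleted cells. ARG7, a mitochondrial acetyltransferase of ornithine synthesis, read 0.66 in the null and -0.29 in SnAC-deleted cells. All 8 genes lay above the median in the null, and 6 of 8 did so after the BY4741 array was subtracted. In the SnAC deletion 4 of 8 were above the median and 0 of 8 were above 0 as deposited. Among 5790 features, ARG1 had the highest null minus SnAC deletion difference, 1.97, with ARG4 at rank 3 and ARG7 at rank 6. CAR2 lay at the opposite end of that ranking, so that in the null relative to the SnAC deletion ARG1, ARG4 and ARG7 stood higher and CAR2 lower.

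**Figure D4:**
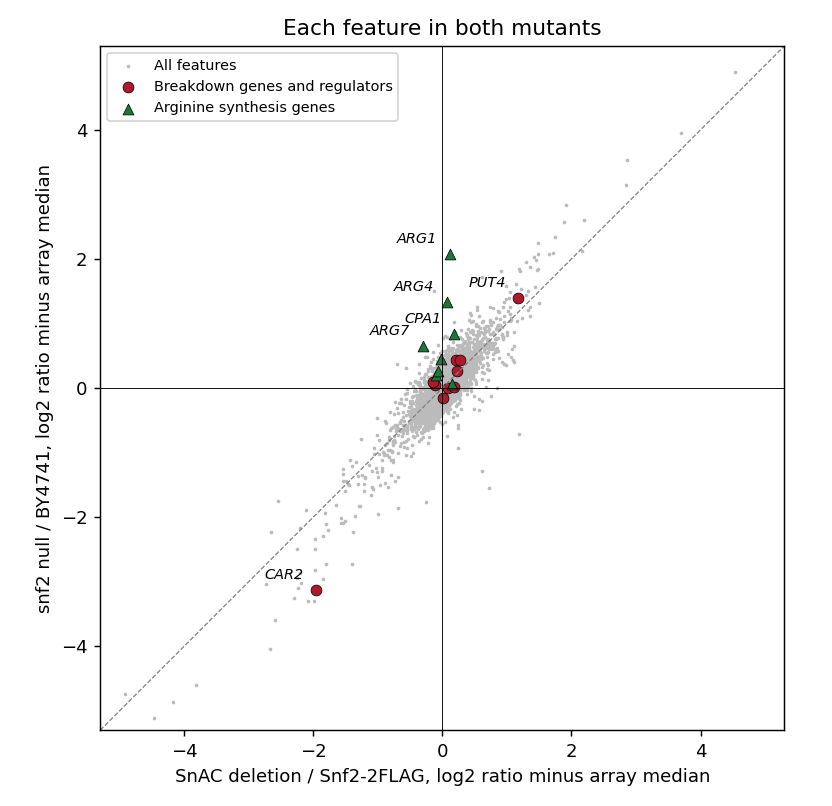
Log2 ratio minus array median of every feature in the null (vertical axis) and in the SnAC deletion (horizontal axis), with the 10 genes as circles, the arginine synthesis genes as triangles and a dashed line where the mutants are equal. ARG1 and ARG4 lie above 2-fold in the null alone, PUT4 lies near the line, and CAR2 lies below it.

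Other routes in and out of the pathway moved less. Besides PUT4, 13 permease genes for basic and other amino acids were measured and 0 were called in either mutant, with values from -0.25 to 0.59 in the null and from -0.27 to 0.40 in SnAC-deleted cells. CAN1, the arginine permease, read 0.41 in the null and 0.26 in SnAC-deleted cells. AGP2 read 0.589 in the null, against -0.043 on BY4741, and 0.400 in the SnAC deletion, against -0.455 on Snf2-2FLAG. With the Snf2-2FLAG array subtracted AGP2 read 0.855, 1.81-fold higher, and its null value lay outside the central 99% of BY4741. The vacuolar transporter gene VBA2 read 0.32 in the null and 0.20 in SnAC-deleted cells. The proline synthesis genes PRO1, PRO2 and PRO3 read -0.20, 0.09 and -0.09 in the null and -0.19, -0.02 and -0.02 in SnAC-deleted cells. PRO3 makes the proline that follows from the Car2 product.

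Genes listed for nitrogen catabolite repression, the control that PUT4 and CAR1 share, did not all move alike. Of 12 measured genes outside the allantoin pathway, 1 was higher and 0 lower in the null, and 0 were called in the SnAC deletion, with medians of 0.46 and 0.35. The SnAC deletion median was -0.04 as deposited. In the null 9 of 12 lay above the median, and 10 of 12 with BY4741 subtracted. In the SnAC deletion 8 of 12 did, and 5 of 9 with Snf2-2FLAG subtracted. Outside the central 99% of the matching wild-type array lay 6 of 12 in the null, against 13.2% of all features. In the SnAC deletion 1 of 12 did, against 3.8% of all features. Values ran from -0.24 to 1.26 in the null. GLN1, glutamine synthetase, was the called gene, at 1.26 in the null, against 0.07 on BY4741, and 0.74 in the SnAC deletion, against 0.05 on Snf2-2FLAG. The ammonium permease genes MEP1 and MEP3 read 0.97 and 0.72 in the null and 0.76 and 0.41 in SnAC-deleted cells. PRB1, a vacuolar protease, read 0.86 in the null, against -0.45 on BY4741, and 0.67 in the SnAC deletion, against -0.39 on Snf2-2FLAG.

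The allantoin and urea genes had no called member among 7 measured in the null and 8 in SnAC-deleted cells, with medians of -0.003 and -0.02. DAL1, DUR3, DAL4 and DCG1 read 0.19, 0.14, -0.13 and -0.18 in the null and 0.24, 0.37, -0.01 and -0.15 in SnAC-deleted cells. The regulators of nitrogen use also had none called, among 11 measured in the null and 10 in SnAC-deleted cells. GLN3, the GATA activator, read 0.15 in the null and 0.07 in SnAC-deleted cells, and URE2, which restrains it, read -0.15 and -0.02. GCN4, the activator of amino acid synthesis, read 0.35 and 0.10, and UGA3 read 0.59 and 0.15.

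Glutamate is where both breakdown routes end. Besides GLN1, GDH1, the main glutamate dehydrogenase for synthesis, read 0.63 in the null and 0.14 in SnAC-deleted cells. GDH2, the dehydrogenase that releases ammonium, read -0.12 and -0.26, and GDH3 read 0.09 and -0.08.

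**Figure D5:**
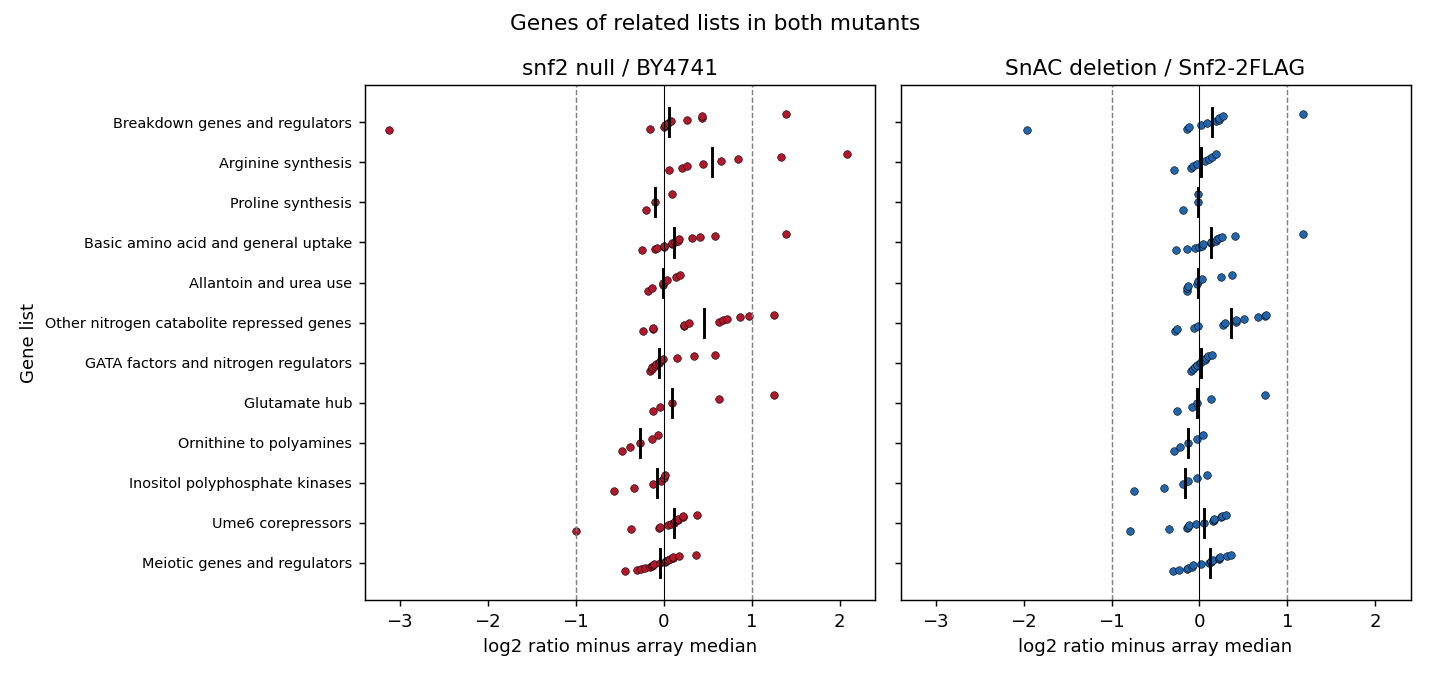
Log2 ratio minus array median (horizontal axis) of the genes of each related list (rows) in the null (left) and the SnAC deletion (right), 1 point per gene, with a bar at the median of the list and dashed lines at 2-fold. CAR2 is the only gene shown that lies more than 2-fold below the median, and ARG1, ARG4, PUT4 and GLN1 lie more than 2-fold above it in the null.

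The genes most like CAR2, CAR1 and PUT4 were taken by Euclidean distance over the 4 centred values, among named genes measured on all arrays. CAR2 had no close match. Its nearest of 4664 genes was TIR1, an anaerobic cell wall gene, at a distance of 0.56, then the siderophore transporter gene SIT1 at 0.70, YHR214C-B at 0.81, YCL020W at 0.83 and MOR1 at 0.87. TIR1 read -2.96 in the null, against 0.02 on BY4741, and -1.85 in the SnAC deletion, against -0.35 on Snf2-2FLAG. CAR1 lay among many genes of like small values, and PPG1, SNO3, LCB5, TES1 and BNA6 were within 0.091 of it. PUT4 could be compared on 3 arrays only, where SER33, CLD1, GPP1, CLN3 and ODC2 came nearest, at distances of 0.27 to 0.38.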

How the data were processed

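The authors' deposited values are 1 log ratio per probe and sample, read as log2. Base 2, the background correction, the filters, the centring and how the 2 scans of opposite dye orientation were combined are not given in the sources used here. Per the labels, the titled strain was in channel 1 and the wild type in channel 2. Each column was centred on its own median over all probes with a value, and several probes of a gene, as 30 genes had, were averaged. Of 6226 probes, 5578 had 1 gene name, 648 none and 0 several. R64 gave current symbols for 5573 of them and gene order, with no coordinates used, since the values name no build. Probes without a value numbered 165 on the null, 396 on the BY4741, 307 on the SnAC deletion and 531 on the Snf2-2FLAG array.

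With 1 sample per group there is no test. The 10 genes, the 11 related lists and the size rule were chosen with earlier results of these data known. Genes named were the 10 genes, all called genes of each related list filled up to 4 by size in the null, MCM1, SNF2, chromosomal neighbours, and the 5 nearest genes to CAR1, CAR2 and PUT4. Called means at least 2-fold and beyond the central 99% of features on the matching wild-type array, a bound that never acts at 2-fold. Python 3.11.15, numpy 2.4.6, pandas 2.3.3 and matplotlib 3.10.9 were used. Alternatives were other folds, other centring, subtraction of the wild-type array, no wild-type bound, single probes, and features on all 4 arrays. Leaving out the wild-type bound could not change a 2-fold call.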

Additional observations from a re-analysis of the deposited data

Results flagged for a closer look

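Among the genes named above or below, 8 lay on opposite sides of the array median in the mutants. Of 5790 features in all, 1235 did so. The named genes were picked partly by their size in the null, so the 8 cannot be read against that share. With 1 sample per mutant the difference was not tested. The null minus SnAC deletion difference was 0.95 for ARG7, which read 0.66 in the null and -0.29 in SnAC-deleted cells, and it is the only one of the 8 outside the central 99% of all differences. The others were 0.23 for ARG81, 0.17 for GDH3, 0.16 for PUT3, 0.12 for PRO2, -0.091 for PEX25, -0.18 for PUT1 and -0.41 for DIF1. Of these, DIF1 alone lay outside the central 95% of all differences, -0.37 to 0.39.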

How the results depend on the processing

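CAR2 was called lower in both mutants under every alternative run, the 3-fold limit included. PUT4 carried the changes in the count of called genes. With 3-fold, with features on all 4 arrays, and with the wild-type array subtracted, 1 of the 10 genes was called in the null and 1 in SnAC-deleted cells. PUT4 has no BY4741 value, so features on all 4 arrays left it out in both mutants and subtraction left it out in the null. As deposited, 1 was called in the SnAC deletion, and the median of the 10 genes there was -0.25. Over all features, the null had 258 higher and 197 lower at 1.5-fold and 27 and 48 at 3-fold, against 76 and 96 at 2-fold. The SnAC deletion had 111 higher and 113 lower at 1.5-fold and 12 and 32 at 3-fold, against 51 and 70. At 1.5-fold the wild-type bound acted in the SnAC deletion alone, since the central 99% of Snf2-2FLAG, -0.74 to 0.74, reaches past 1.5-fold. The 1.5-fold limit was therefore stricter there than in the null. As deposited the SnAC deletion had 20 higher and 145 lower, and with Snf2-2FLAG subtracted 102 were higher. Other choices left these counts within 1.5 times. Values of the 10 genes were held against the SD across features of the wild-type array, 0.16 for the null and 0.25 for the SnAC deletion, and differences between mutants against 0.29, the root of their summed squares. As deposited, 20 of 30 values moved by more, the SnAC deletion values and the differences between mutants, since that array is displaced by -0.39. Subtraction of the wild-type array moved 3 of 28 values by more, CAR2 in the null to -2.63, ARG82 in the null to 0.22 and ARG81 in the SnAC deletion to -0.41. No paired analysis was possible because each group had 1 sample. No signal level was used, so a ratio near 0 does not show that a gene was expressed.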

Other observations

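Genes around the regulators Ume6 and Arg82 and the route from ornithine to polyamines had 0 called members in either mutant. Of 13 genes of the Ume6 corepressors, ASH1 was the farthest from the median, at -0.99 in the null, against -0.26 on BY4741, and -0.79 in the SnAC deletion, against -0.05 on Snf2-2FLAG. DEP1, PHO23 and SIN3 read 0.38, -0.37 and 0.22 in the null and 0.30, -0.04 and 0.25 in SnAC-deleted cells. A list of meiotic genes and regulators, which mixes genes that Ume6 represses with others such as the kinase gene RIM11, had medians of -0.05 over 17 genes in the null and 0.12 over 16 in SnAC-deleted cells. The SnAC deletion median was -0.27 as deposited. MEI4, RIM11, ZIP1 and MEK1 read -0.44, 0.37, -0.31 and -0.26 in the null and -0.30, 0.36, -0.13 and -0.23 in SnAC-deleted cells.

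Ornithine decarboxylase, the product of SPE1, competes with Car2 for ornithine. SPE1 read -0.27 in the null and -0.29 in SnAC-deleted cells. SPE2, SPE3 and SPE4 read -0.38, -0.48 and -0.13 in the null and -0.22, -0.13 and -0.03 in SnAC-deleted cells. Of the 5 genes listed for this route, 0 lay above the median in the null and 1 in SnAC-deleted cells. Among the inositol polyphosphate kinases and their partners, VIP1 was the lowest, at -0.57 in the null, against -0.19 on BY4741, and -0.74 in the SnAC deletion, against 0.22 on Snf2-2FLAG. DDP1, KCS1 and PLC1 read -0.34, -0.12 and -0.03 in the null and -0.41, -0.19 and -0.13 in SnAC-deleted cells.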
